A study of Mus musculus with 7 samples.

Results

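Mitochondrial ribosomal protein genes, the nuclear genes for the protein subunits of the mitoribosome, were followed in mouse blood stem and progenitor cells with and without deletion of Jmjd1c. The members were taken by name: every gene ID of the deposited table that pairs with a protein-coding symbol beginning Mrpl or Mrps and a digit. This gave 77 of 39179 gene IDs, 48 with an Mrpl symbol (large subunit) and 29 with an Mrps symbol (small subunit). Of these, 76 passed the filter on low values and were tested, 47 Mrpl and 29 Mrps. The member that did not pass was Mrpl53, listed at 0 in every library. Of its 790 exonic bases, 695 are shared with Gm42688, an annotated gene on the same strand.

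The cells were LSK cells, the bone marrow fraction without lineage markers and with Sca1 and Kit on the surface, sorted from mice aged 7 weeks of the strain labelled C57/BL6. The control group was 4 libraries from mice with the Vav1Cre transgene, and the Jmjd1c group was 3 libraries from mice labelled Jmjd1c f/f Vav1Cre. Both groups thus carry Vav1Cre, a transgene that expresses Cre recombinase throughout the blood system, and the floxed allele is named for the Jmjd1c group alone. No label ties a library to an animal of its own, and the p-values therefore speak of the spread among these 7 libraries, part or all of which may be technical.

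The mitoribosome translates the messenger RNAs of the mitochondrial genome, which encode core subunits of the respiratory chain and of ATP synthase. Its ribosomal RNAs come from mitochondrial DNA, whereas all of its proteins are imported from the cytosol. Some of the proteins have homologues in bacterial ribosomes and others exist only in mitochondria. Mouse symbols do not always give the place of a protein: the products of Mrps18a (mL66 in the unified nomenclature) and Mrps30 (mL65) sit in the large subunit, and that of Mrps36 is now assigned to a dehydrogenase complex of the citric acid cycle.

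Values are read counts per gene divided by a size factor for each library, called normalized read counts here. The libraries held 4303712 to 6436519 reads in genes. Jmjd1c was 488 ± 30.4 normalized read counts in control (SD, n = 4) and 264 ± 26.3 in Jmjd1c (SD, n = 3), and it fell by 0.89 ± 0.09 on the log2 scale (SE; limma, adjusted p = 0.00407). Which exons the floxed allele removes is not given in the sources used here, and the count covers the whole gene. Of 9 genes that define LSK cells, 9 were tested and 0 passed limma's test, with 3 at an unadjusted p under 0.05. edgeR called 0 of them and DESeq2 called 1. Their summed level was 25755 to 29541 in control and 26351 to 29884 in Jmjd1c, with Kit at 5848 ± 802 and 6459.8 ± 721 and Ly6a, which encodes Sca1, at 820 ± 96.5 and 784 ± 55.6. Markers of other cells were also present. Summed levels of 10 B and plasma cell markers were 17519 to 23382 in control and 11453, 9560 and 28854 in Jmjd1c 1, 2 and 3. Of these markers 9 were tested, with a median log2 fold change of -0.99, 1 above 0 and 8 below. limma, edgeR and DESeq2 each called 0 of them, and 6 were lower and 0 higher at an unadjusted p under 0.05. Summed levels of 11 macrophage and dendritic cell markers were 9993 in control 4 against 2509 to 3755 in the other controls and 2312 to 4022 in Jmjd1c. The 9 basophil and mast cell markers summed to 6199 to 9478 in control and 2928 to 5251 in Jmjd1c, without overlap. Of these 9, 1 passed limma's test, 5 were lower and 1 higher at an unadjusted p under 0.05, edgeR called 1 and DESeq2 3. The most positive of the 9, at 0.54 on the log2 scale, is also among the genes that define LSK cells. The gene that passed limma's test was Prss34, a mast cell and basophil protease, which fell by 1.12 ± 0.23 on the log2 scale (adjusted p = 0.041). It was -0.78 without Jmjd1c 3 (adjusted p = 0.107), and the call was also lost without control 1, 2 or 3 or Jmjd1c 2 and with GC and length correction. The 10 neutrophil markers summed to 9957 to 13392 and 6910 to 9928, also without overlap, and limma called 0 of them, with 4 lower at an unadjusted p under 0.05, edgeR 0 and DESeq2 2. Erythroid, T and NK, and endothelial and stromal lists overlapped between groups. None of the markers in these lists was at 0 in every library, and the part of these cells in the results on the members was not tested. Jmjd1c 3 correlated with the other libraries at 0.954 to 0.972 (Pearson, log2 values over tested genes), where pairs without it gave 0.961 to 0.983, so results that rest on it are given with and without it.

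The mitoribosomal genes differed little between the groups, and 1 of the 76 tested members passed the test. That gene was Mrps26, which encodes a small subunit protein without a bacterial homologue (mS26) and which rose 1.77-fold in Jmjd1c. Among all 12813 tested genes, 231 passed (1.8%), 194 of them higher in Jmjd1c (1.51%) and 37 lower (0.289%). In the large subunit 0 of 47 members passed limma's test, 2 were higher and 2 lower at an unadjusted p under 0.05, and edgeR and DESeq2 each called 0. In the small subunit 1 of 29 passed and was higher, and 4 were higher and 1 lower at an unadjusted p under 0.05. An unadjusted p under 0.05 was reached by 9 of the 76 members, against 19.7% of all tested genes. edgeR called Mrps26 alone (1.82% of all tested genes called) and DESeq2 called Mrps26 and Mrps34 (4.6% of all tested genes). These are levels of RNA in bulk samples, in which fewer cells of a type and less RNA per cell cannot be told apart.

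The median log2 fold change, Jmjd1c minus control on the log2(value + 1) scale, was -0.05 over the 47 large subunit members and 0.015 over the 29 small subunit members, beside -0.0083 over all tested genes. Single members ranged from -0.31 to 0.44 in the large subunit, 16 above 0 and 31 below it, and from -0.18 to 0.83 in the small subunit, 16 above and 13 below. After correction of each library for transcript GC content and length, the medians were 0.026 and 0.08, so the sign for the large subunit depends on that correction. The small subunit median was -0.0064 without Jmjd1c 3 and -0.0076 with quantile normalization, so its sign depends on that library and on the scaling. Without Jmjd1c 3 the large subunit median was -0.039. Most differences were small in size: 32 of 47 large subunit members (68.1%) and 17 of 29 small subunit members (58.6%) lay within 0.1 of 0, against 34.8% of all tested genes. The precision allowed bounds on single members. The 95% interval of the difference lay wholly within a 1.5-fold change either way for 69 of 76 members (90.8%), 45 of 47 in the large and 24 of 29 in the small subunit, against 62.3% of all tested genes. The exceptions were Mrpl23, Mrpl38, Mrps6, Mrps24, Mrps26, Mrps30 and Mrps34. Such narrow bounds are not particular to the members. The share was 97.6% for 83 tested cytosolic ribosomal protein genes and 97.6% for 83 tested nuclear genes of the respiratory chain. The median SE was 0.086 over the members and 0.131 over all tested genes.

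**Figure D1:**
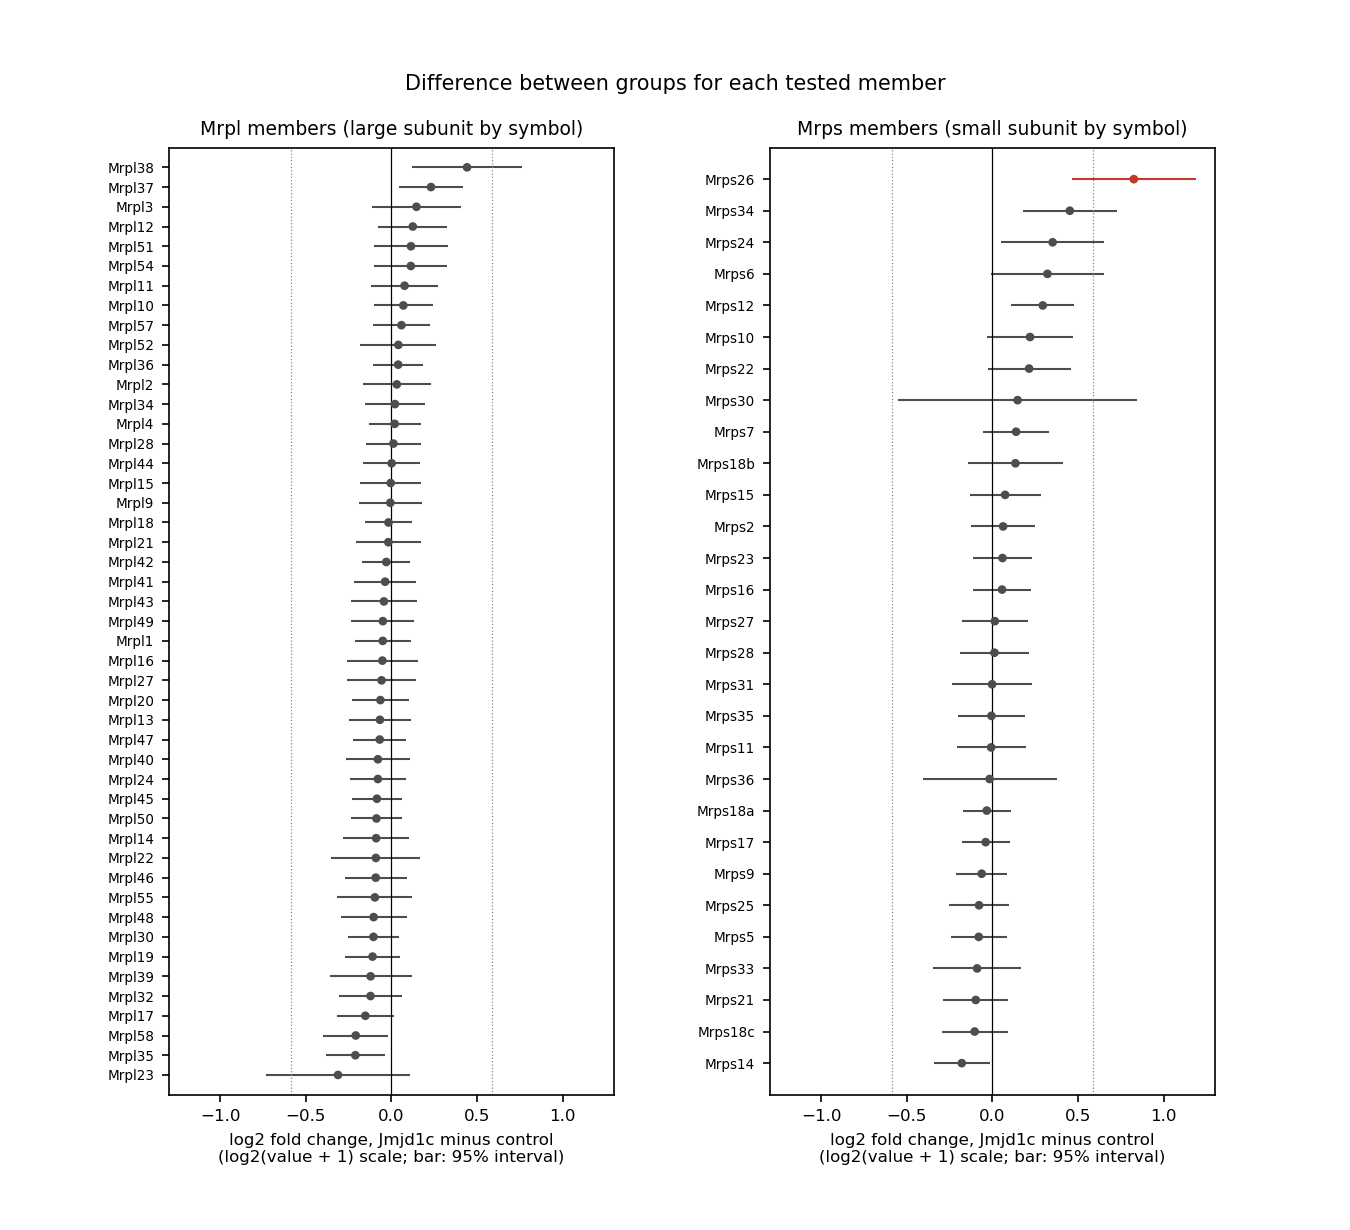
Each point is the log2 fold change of a tested member (Jmjd1c minus control, limma on log2(value + 1), 4 control and 3 Jmjd1c libraries) with its 95% interval as a bar, in order of size, Mrpl members on the left and Mrps members on the right. Dotted lines mark a 1.5-fold change either way, and Mrps26 in red is the member that passed the test at an adjusted p of 0.0376.

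Control replicates of these genes lay close together. The members' median level was 370 normalized read counts in the large and 286 in the small subunit, above the median of 159 over all tested genes. The median SD of the log2 values between the 4 control libraries was 0.099 for the large and 0.089 for the small subunit, against 0.159 for all tested genes. Between the 3 Jmjd1c libraries it was 0.067 for the large and 0.128 for the small subunit, against 0.151, so the small subunit was less tight there. Levels compared between genes are given per kilobase of each gene's principal transcript, as normalized read counts per kilobase. The highest in the large subunit were Mrpl42 (1173), Mrpl18 (945) and Mrpl28 (826), and the lowest tested were Mrpl3 (42.6), Mrpl23 (80.6) and Mrpl51 (84.9). Mrpl18 encodes uL18m, a protein of the central protuberance, and Mrpl28 encodes bL28m. In the small subunit by symbol the highest were Mrps18a (582), Mrps18c (581) and Mrps21 (549) and the lowest were Mrps30 (9.02), Mrps26 (28.3) and Mrps35 (59.2). Per kilobase of all annotated exons the order can change, and Mrpl42 then ranked 20 of 48.

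Promoter windows are shown for 5 members the results turn on: Mrps26, the member that rose; Mrps12, all of whose Jmjd1c libraries lay above the controls; Mrpl35 and Mrpl58, all of whose Jmjd1c libraries lay below; and Mrpl44, beside which a neighbouring gene fell. Each runs from 250 bases before to 50 bases after the start in RefSeq (GRCm38.p6), 5′ to 3′ on the gene's strand. Capitals mark matches on either strand to 3 motifs of factors known for nuclear genes of mitochondria: GCGCANGCGC (NRF1), CCGGAAG (ETS family, which includes GABPA) and AANATGGCG (YY1). The windows are Mrps26 at chr2:130563507-130563806 (plus strand), Mrps12 at chr7:28741772-28742071 (minus), Mrpl58 at chr11:115403502-115403801 (plus), Mrpl35 at chr6:71823735-71824034 (minus) and Mrpl44 at chr1:79775768-79776067 (plus).
Mrps26: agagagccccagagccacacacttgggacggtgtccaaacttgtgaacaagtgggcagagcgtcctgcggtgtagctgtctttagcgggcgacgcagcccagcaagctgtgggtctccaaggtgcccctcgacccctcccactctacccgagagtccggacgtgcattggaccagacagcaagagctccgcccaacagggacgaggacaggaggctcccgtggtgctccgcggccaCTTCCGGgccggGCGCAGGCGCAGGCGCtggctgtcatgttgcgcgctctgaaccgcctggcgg
Mrps12: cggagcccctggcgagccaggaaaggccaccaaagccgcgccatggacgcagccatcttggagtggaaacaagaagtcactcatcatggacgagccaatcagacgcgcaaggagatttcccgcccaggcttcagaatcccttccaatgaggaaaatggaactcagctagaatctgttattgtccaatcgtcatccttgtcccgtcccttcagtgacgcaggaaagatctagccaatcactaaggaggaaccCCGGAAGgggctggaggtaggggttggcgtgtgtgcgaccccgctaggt
Mrpl58: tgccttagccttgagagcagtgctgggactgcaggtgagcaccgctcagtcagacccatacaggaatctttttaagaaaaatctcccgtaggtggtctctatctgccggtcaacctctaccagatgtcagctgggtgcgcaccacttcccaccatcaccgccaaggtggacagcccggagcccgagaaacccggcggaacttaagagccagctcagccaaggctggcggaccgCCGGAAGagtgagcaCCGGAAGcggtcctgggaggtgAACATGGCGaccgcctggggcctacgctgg
Mrpl35: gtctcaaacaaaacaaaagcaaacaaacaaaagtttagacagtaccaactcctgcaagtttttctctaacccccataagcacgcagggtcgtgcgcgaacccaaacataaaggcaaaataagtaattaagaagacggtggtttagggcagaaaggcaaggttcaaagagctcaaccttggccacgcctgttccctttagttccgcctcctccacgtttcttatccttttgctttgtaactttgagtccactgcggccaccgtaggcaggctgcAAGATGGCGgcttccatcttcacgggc
Mrpl44: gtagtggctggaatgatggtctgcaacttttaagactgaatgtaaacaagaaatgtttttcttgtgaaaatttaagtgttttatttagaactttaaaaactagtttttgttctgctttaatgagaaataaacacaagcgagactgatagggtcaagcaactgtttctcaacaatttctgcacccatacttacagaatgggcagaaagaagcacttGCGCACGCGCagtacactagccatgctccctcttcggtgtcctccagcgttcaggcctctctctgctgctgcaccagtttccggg
In the Mrps26 window the ETS letters lie just before the start site, on the minus strand, and of 2 overlapping NRF1 matches the first spans it and the second lies after it. The YY1 letters of Mrpl58 and Mrpl35 lie after the start and contain an ATG.

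Windows were found for 68 of the 77 members, 74 windows in all because some genes have several starts. The ETS letters were in 25 of the 74 (33.8%), against 18.1% of the windows of tested protein-coding genes and 8.86% of all windows in the table. NRF1 letters were in 13 (17.6%, against 10.3% and 4.6%) and YY1 letters in 11 (14.9%, against 5.2% and 2.38%). Any of the 3 was in 41 windows (55.4%, against 29.7% and 14.2%). The E-box CACGTG, searched in the same way, was in 7 (9.46%, against 9.99% and 7.15%). The differences between groups were also listed by motif, and the median log2 fold change was -0.08 for 13 tested members with NRF1 letters, -0.0012 for 24 with ETS letters, -0.0073 for 11 with YY1 letters and -0.05 for 27 with none of the 3. After GC and length correction these medians were 0.026, 0.08, 0.07 and 0.028. The genes of 3 such factors did not pass the test: Nrf1 was 654 ± 35.3 in control and 639 ± 14.7 in Jmjd1c, Gabpa 524 ± 16.8 and 572 ± 40.7, and Yy1 128 ± 8.09 and 108 ± 5.3 (limma, adjusted p = 0.828, 0.375 and 0.273).

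Mrps26 (ENSMUSG00000037740; chromosome 2, 130563742 to 130568695, plus strand, mm10) held 90.4, 91.7, 86.3 and 89.2 normalized read counts in controls 1 to 4 and 132, 141 and 217 in Jmjd1c 1 to 3. All 3 Jmjd1c libraries lay above all 4 controls, with Jmjd1c 3 well above the other two. These values rest on 74 to 113 reads per control library and 137 to 185 per Jmjd1c library. The difference was 0.83 ± 0.16 on the log2 scale (SE; 95% interval 0.47 to 1.19; limma, adjusted p = 0.0376). It was 0.6 without Jmjd1c 3 (adjusted p = 0.118), so the size and the call depend on that library. The call was also lost without control 1, 2 or 3 or Jmjd1c 2 (log2 fold change 0.81 to 0.91, adjusted p = 0.0587, 0.0721, 0.117 and 0.174) and with GC and length correction (0.8, adjusted p = 0.0541). It held without control 4 (adjusted p = 0.0413) and without Jmjd1c 1 (0.0163), and with edgeR (0.0394) and DESeq2 (0.00134).

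The next largest differences in the small subunit did not pass the test. Mrps34, which encodes mS34, a protein needed for a stable small subunit, was 233, 227, 185 and 219 in the controls and 250, 291 and 352 in Jmjd1c. The groups did not overlap and Jmjd1c 3 was again the highest, and the difference was 0.45 ± 0.13 on the log2 scale (limma; adjusted p of 0.0871). DESeq2 called it (adjusted p = 0.0398), limma called it without Jmjd1c 1 (0.57, adjusted p = 0.0321), it was 0.32 without Jmjd1c 3 (adjusted p = 0.284), and the GC and length correction left 0.24 (adjusted p = 0.262). Mrps34 shares 763 of its 2064 exonic bases with Nme3 on the same strand, and how reads in those bases were counted is not given in the sources used here. Mrps12 encodes uS12m, the homologue of the bacterial decoding-site protein that streptomycin resistance maps to. Its values were 277, 273, 247 and 247 in the controls and 310, 325 and 324 in Jmjd1c, again without overlap, for a log2 fold change of 0.29 ± 0.08 (adjusted p = 0.092). Here the 3 Jmjd1c libraries were close to one another, and the values left after leaving out any library ran from 0.27 to 0.32.

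Mrps24 (uS3m) was 126, 165, 141 and 143 in the controls and 154, 181 and 218 in Jmjd1c. Its groups overlapped, and the difference of 0.35 ± 0.14 on the log2 scale had an adjusted p of 0.195 in limma, and without Jmjd1c 3 it was 0.22. Mrps6 (bS6m) was 87.2, 85.7, 75.8 and 101 against 102, 130 and 97.5, also with overlap, and its log2 fold change was 0.32 ± 0.15 (adjusted p = 0.263) and 0.2 without Jmjd1c 2. Both share exonic bases with a gene on the same strand, Mrps24 with Urgcp and Mrps6 with Slc5a3. Mrps22 (mS22), a small subunit protein known from inherited mitochondrial disease, was 126, 139, 134 and 129 in the controls and 141, 148 and 170 in Jmjd1c. Its groups did not overlap, but the difference of 0.21 ± 0.11 did not pass (adjusted p = 0.306), and without Jmjd1c 3 it was 0.14.

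At the lower end of the small subunit, Mrps14 (uS14m) was at 1076, 998, 951 and 1000 in the controls and 982, 859 and 830 in Jmjd1c. Its groups overlapped through Jmjd1c 1, with a difference of -0.18 ± 0.08 on the log2 scale that limma placed at an adjusted p of 0.22. Mrps18c, Mrps21, Mrps33 and Mrps5 had log2 fold changes of -0.1, -0.1, -0.09 and -0.08, none past the test (adjusted p = 0.544 to 0.708), and those of Mrps18c, Mrps21 and Mrps33 were above 0 after GC and length correction. The core proteins Mrps2 (uS2m), Mrps7 (uS7m) and Mrps16 (bS16m), all with bacterial homologues, had log2 fold changes of 0.06, 0.14 and 0.06, each with overlapping groups. The 3 homologues of the bacterial small subunit protein bS18 were measured side by side: Mrps18a (mL66) at 519 ± 3.71 in control and 508 ± 9.43 in Jmjd1c, Mrps18b (mS40) at 141 ± 18.3 and 154 ± 11.5, and Mrps18c (bS18m) at 382 ± 20.4 and 356 ± 34. None passed the test (adjusted p = 0.814, 0.587 and 0.544). The scarcest of the tested members, Mrps30, held 19.3 to 35 in control and 20.6 to 49.3 in Jmjd1c, and its 95% interval of -0.55 to 0.84 leaves its difference poorly bounded. Mrps36 was 46.6 ± 3.31 and 46.4 ± 7.82, and Mrps35 247 ± 17.5 and 246 ± 9.94.

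**Figure D2:**
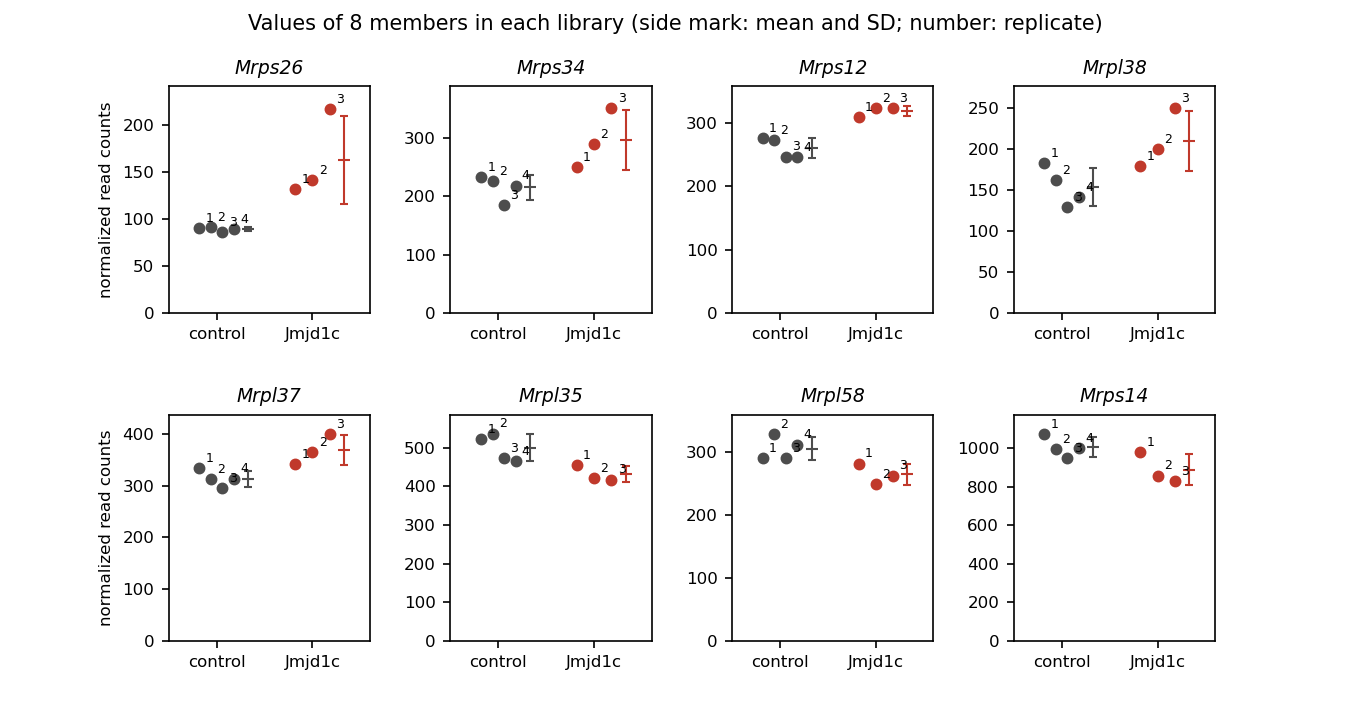
Points are normalized read counts of 8 members in each library, numbered by replicate, with the mean and SD beside each group and every axis starting at 0. In Mrps26, Mrps34, Mrps12 and Mrpl37 all Jmjd1c libraries lie above all controls, in Mrpl35 and Mrpl58 all lie below, and in Mrpl38 and Mrps14 the groups overlap.

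In the large subunit the most positive difference was that of Mrpl38 (mL38), a mitochondria-specific protein, at 182, 162, 129 and 142 in the controls and 179, 200 and 250 in Jmjd1c. Control 1 lay above Jmjd1c 1, so the groups overlapped, and limma gave a difference of 0.44 ± 0.15 on the log2 scale at an adjusted p of 0.136, which was 0.31 without Jmjd1c 3. Mrpl37 (mL37), the partner of the Mrps30 product in the large subunit, was 334, 313, 296 and 314 against 342, 366 and 400, without overlap. Its difference was 0.23 ± 0.08 (adjusted p = 0.169). Mrpl3 (uL3m), Mrpl12 (bL12m) and Mrpl51 (mL51) followed at 0.15, 0.13 and 0.11, each with overlapping groups and an adjusted p of 0.475 to 0.547. Stalk proteins bind translation factors on the ribosome, and the stalk protein gene Mrpl12 was 621 ± 57.1 in control and 678 ± 66.3 in Jmjd1c. The genes of the stalk base were Mrpl10 at 465 ± 38.5 and 487 ± 7.19 and Mrpl11 at 337 ± 22.2 and 356 ± 32.4.

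Mrpl35 (bL35m) was 522, 536, 473 and 465 in the controls and 454, 421 and 417 in Jmjd1c. Every Jmjd1c library lay below every control, with a log2 fold change of -0.21 ± 0.08 that did not pass the test (limma, adjusted p = 0.179). Mrpl58 (mL62), a peptidyl-tRNA hydrolase built into the large subunit that releases stalled ribosomes, was 291, 329, 291 and 312 against 282, 249 and 263. This difference of -0.21 ± 0.09 did not pass either (adjusted p = 0.217), again without overlap. Mrpl23 (uL23m), which lines the exit of the nascent chain, had the most negative value, -0.31 ± 0.19, from 55.9 to 63.8 in control and 51.3, 60.8 and 36.4 in Jmjd1c (adjusted p = 0.389). Without Jmjd1c 3 it was -0.11. A processed pseudogene, Mrpl23-ps1, held 112 reads over the 7 libraries and could share reads with it. Mrpl17 (bL17m) and Mrpl32 (bL32m) had differences of -0.15 and -0.12, the latter 0.026 after GC and length correction. Mrpl24, Mrpl41 and Mrpl44 lay at -0.08, -0.04 and 0.0016.

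The numbers of members whose groups did not overlap are given beside the shares over all tested genes, and no difference from them was tested. Jmjd1c lay above control in 1 of 47 large subunit members (Mrpl37) and 4 of 29 small subunit members (Mrps12, Mrps22, Mrps26 and Mrps34), against 9.74% of all tested genes. It lay below in 4 of 47 large subunit members (Mrpl35, Mrpl45, Mrpl50 and Mrpl58) and 1 of 29 small subunit members (Mrps9), against 7.1% of all tested genes. Over all 76 members this is 5 above and 5 below. By ancestry, leaving out Mrps36, 0 of 45 tested members with a bacterial homologue were called and their median log2 fold change was -0.02, and 1 of 30 mitochondria-specific members was called with a median of -0.0037. Both medians were above 0 after GC and length correction, at 0.04 and 0.05. At an unadjusted p under 0.05 these groups held 4 and 5 members, edgeR called 0 and 1, and DESeq2 0 and 2. Over all tested genes limma called 1.8%, edgeR 1.82% and DESeq2 4.6%, and 19.7% had an unadjusted p under 0.05. The 1 member called by limma was Mrps26, and no difference by ancestry was tested.

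Summed over members, the large subunit genes gave 20555 to 21403 normalized read counts in control and 20236 to 20794 in Jmjd1c, and the small subunit genes 8724 to 9106 and 9082 to 9205. Both sums overlapped between groups. The ratio of the small to the large sum within a library was 0.421, 0.425, 0.424 and 0.437 in controls 1 to 4 and 0.438, 0.449 and 0.445 in Jmjd1c 1 to 3. Control 4 came close to Jmjd1c 1 without crossing it, and the means of 0.427 ± 0.0071 and 0.444 ± 0.0057 differ by 0.06 on the log2 scale. The separation remained when members were sorted by their place in the structure (0.384 to 0.397 against 0.4 to 0.409) and with GC and length correction. The groups overlapped when Mrps26 was left out (0.417 to 0.433 against 0.431 to 0.442) or when members sharing exons with a same-strand gene were left out (0.391 to 0.406 against 0.404 to 0.411). No test was made of this ratio, which was looked at after the members' values were known.

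**Figure D3:**
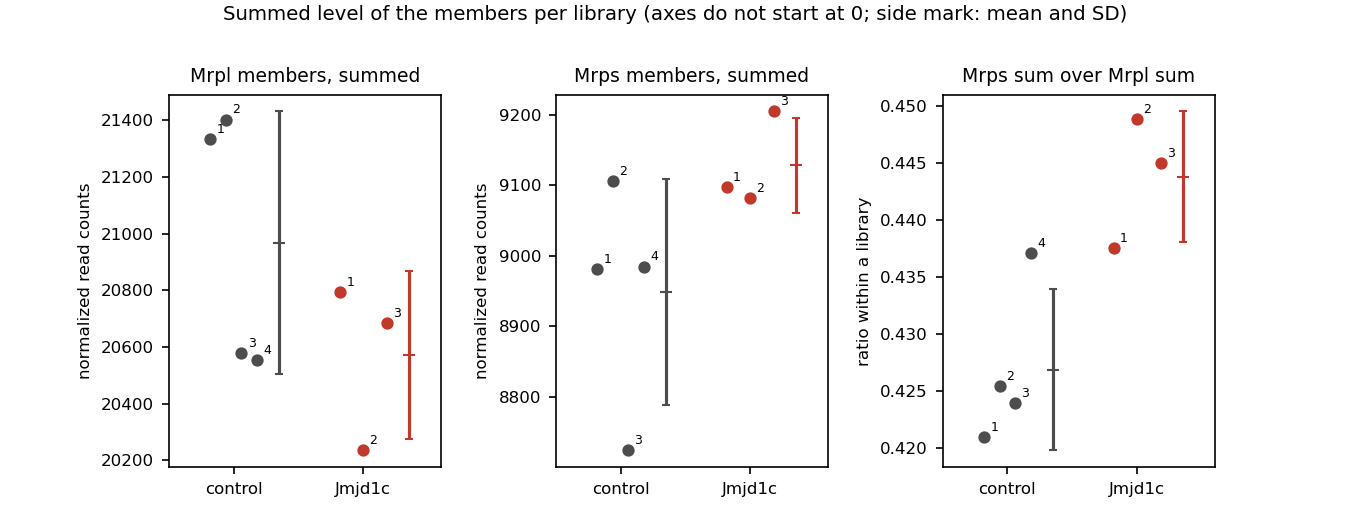
Summed normalized read counts of the Mrpl members, of the Mrps members, and their ratio, one point per library numbered by replicate, with the mean and SD beside each group; the axes do not start at 0. The sums overlap between groups, and the ratio runs from 0.421 to 0.437 in control and from 0.438 to 0.449 in Jmjd1c.

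The difference between groups moved with the GC content of the transcripts. Across the 76 tested members, Pearson's r between transcript GC content and log2 fold change was 0.357 (0.345 over 47 large and 0.484 over 29 small subunit members), and across 12677 tested genes it was 0.272. These are correlations across genes that share the same 7 libraries, given as a description. In each library, the members' deviation from their mean over libraries correlated with GC content at -0.38 to -0.1 in the 4 controls and at 0.2 to 0.28 in the 3 Jmjd1c libraries, so the GC trend and the genotype cannot be told apart. After the GC and length correction r was 0.05 over the members, -0.04 over the large and 0.22 over the small subunit members. The correction was fitted to GC content and length over the tested genes of these same libraries, so a fall in r is built into it. Mrps26, at 51.6% GC, kept 0.8, whereas Mrps34 (60.2% GC) went from 0.45 to 0.24, Mrps24 (60.7%) from 0.35 to 0.21 and Mrpl38 (58.6%) from 0.44 to 0.31.

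**Figure D4:**
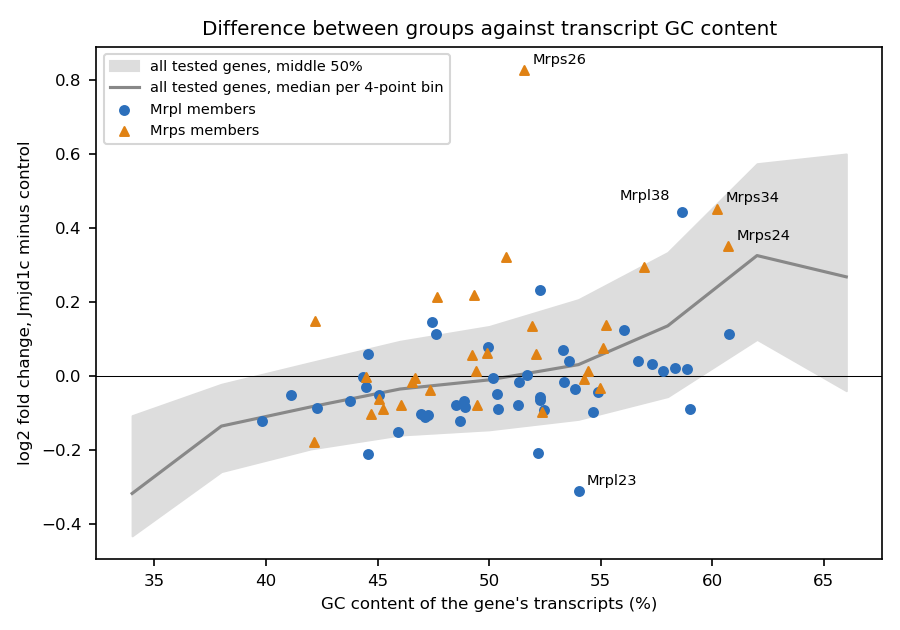
Log2 fold change of each tested member against the GC content of its transcripts in percent, over the median and the middle 50% of all tested genes in bins 4 points wide. Values are higher at higher GC content in the members (r = 0.357) and in all tested genes (r = 0.272), and Mrps26 stands highest at 0.83.

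Many members have a gene that starts close by on the other strand. A protein-coding partner with its start within 1000 bases was found for 33 of the 76 tested members (43.4%), against 17.2% of 11371 tested protein-coding genes. In 31 of these cases both genes were tested, and 17 of the 31 had the same sign. The Mrps11 and Mrpl46 genes are each other's partner, so this pair, with the same sign, is counted from each side among the 31 and the 17. Of these partners 1 passed the test: Wdfy1, which encodes an endosomal FYVE-domain protein, went from 626 ± 48.7 in control to 297 ± 53.5 in Jmjd1c and fell by 1.09 ± 0.11 on the log2 scale (limma, adjusted p = 0.00407). It passed with any 1 library left out. The pair starts on opposite strands with overlapping 5′ ends. Mrpl44, which encodes a large subunit protein with a ribonuclease III-like fold (mL44), was 654, 589, 552 and 608 in the controls and 629, 589 and 584 in Jmjd1c. Its groups overlapped fully and its 95% interval ran from -0.16 to 0.17. Beside Mrps12, the gene of the mitochondrial seryl-tRNA synthetase, Sars2, was 105 ± 6.9 and 135 ± 18.1, a log2 fold change of 0.35 ± 0.13 that did not pass (adjusted p = 0.172). Beside Mrps34, Eme2 had -0.05 ± 0.1 (adjusted p = 0.806).

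**Figure D5:**
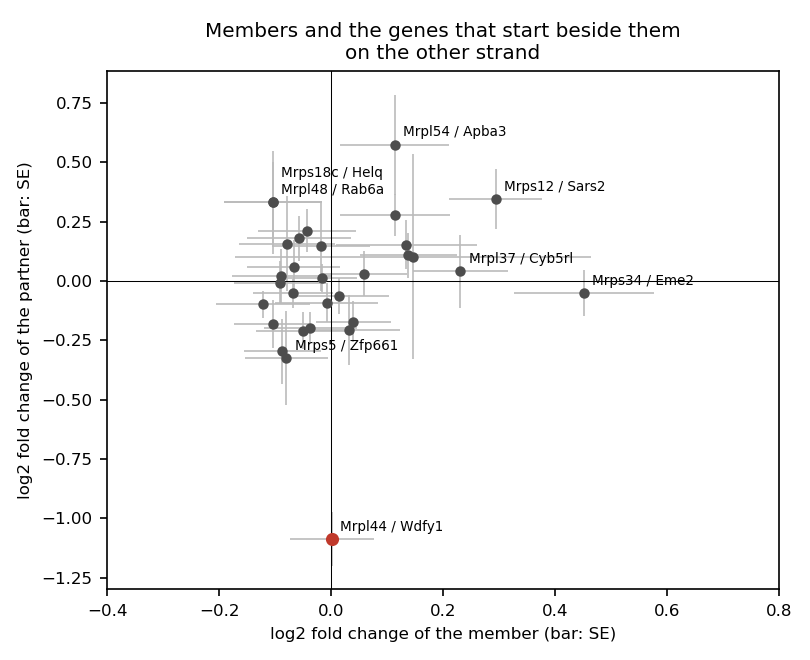
Log2 fold change of each member (horizontal) and of the gene that starts within 1000 bases on the other strand (vertical), with SE bars, for the 31 cases in which both were tested. The partner in red, Wdfy1 at -1.09, is the 1 that passed the test, and Mrpl44 beside it is at 0.0016.

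Genes that work with these proteins were taken from lists. Of 5 further subunits whose symbols are not Mrpl or Mrps, 0 passed limma's test, 2 had an unadjusted p under 0.05, and edgeR and DESeq2 called 0. Dap3, a GTP-binding small subunit protein, was 586 ± 16.6 in control and 516 ± 48 in Jmjd1c, a log2 fold change of -0.19 ± 0.08 (adjusted p = 0.213), and Gadd45gip1 was 340 ± 43.8 and 428 ± 71.9, at 0.33 ± 0.12 (adjusted p = 0.185). Without Jmjd1c 3 the values were -0.11 for Dap3 and 0.2 for Gadd45gip1. Of 31 genes for mitoribosome assembly and rRNA modification, limma called 0, with 8 at an unadjusted p under 0.05 (5 higher, 3 lower), edgeR 0 and DESeq2 2, and their median was -0.02 (0.03 after GC and length correction). The nearest were Noa1, a GTPase of small subunit assembly, at 35.2, 45.9, 46.6 and 38.5 in the controls and 61.2, 72.1 and 104 in Jmjd1c (log2 fold change 0.89 ± 0.21, adjusted p = 0.0538), and Mpv17l2 at 91.6 ± 7.38 and 137 ± 22.8 (0.56 ± 0.14, adjusted p = 0.0603). In both, the groups did not overlap and Jmjd1c 3 was the highest. Without that library the values were 0.67 for Noa1 and 0.43 for Mpv17l2.

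Of 16 genes found and tested from the list of mitochondrial translation factors, 1 passed, Lrpprc, whose product acts on messenger RNAs rather than as a translation factor. Lrpprc, which with SLIRP keeps mitochondrial messenger RNAs stable and polyadenylated, rose from 104, 134, 120 and 106 in the controls to 158, 218 and 282 in Jmjd1c, a difference of 0.88 ± 0.18 on the log2 scale (adjusted p of 0.0376 in limma). The groups did not overlap, Jmjd1c 3 was the highest, and with GC and length correction the value was 0.89 at an adjusted p of 0.0513. Without Jmjd1c 3 it was 0.68 (adjusted p = 0.12), and the call was also lost without control 1, control 2, control 3 or Jmjd1c 2 (0.83 to 0.95, adjusted p = 0.0646, 0.0649, 0.104 and 0.205). Slirp itself was 1079 ± 23.1 and 1082 ± 79.3. Of 16 genes for transcription of mitochondrial genes, limma called 0, with 4 at an unadjusted p under 0.05, edgeR 0 and DESeq2 1. Polrmt, the mitochondrial RNA polymerase, was 139 ± 14.1 in control and 205 ± 39.1 in Jmjd1c (0.55 ± 0.14, adjusted p = 0.0644; 0.27 after GC and length correction and 0.41 without Jmjd1c 3), and Tfam was 442 ± 27.6 and 459 ± 14.4. The RNA partners of the members were lower in Jmjd1c without passing: the small subunit rRNA mt-Rnr1 was 4610.1 ± 507 in control and 3585 ± 228 in Jmjd1c without overlap (-0.36 ± 0.09, adjusted p = 0.0574; -0.01 after correction), and the large subunit rRNA mt-Rnr2 had -0.5 ± 0.14 with overlap (adjusted p = 0.0904).

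The same counts are given for 2 other sets of nuclear genes for large complexes, beside the member median of -0.02, which was 0.05 after GC and length correction. For cytosolic ribosomal protein genes, many of which have near-identical pseudogenes that could share their reads, the median difference was -0.12 on the log2 scale (83 tested, 5 above 0 and 78 below; limma called 0, with 24 at an unadjusted p under 0.05, edgeR 0 and DESeq2 4), which was -0.04 after GC and length correction. Nuclear genes of the respiratory chain had a median of -0.04 (83 tested, 30 above 0 and 53 below; limma called 2, both higher, with 10 higher and 7 lower at an unadjusted p under 0.05, edgeR 2 and DESeq2 4), which was 0.04 after the correction. These were Cox5a, a subunit of cytochrome c oxidase, which rose from 921 ± 24.7 to 1170.4 ± 92.5 (0.34 ± 0.07, adjusted p = 0.0374 in limma), and Atp5d, a subunit of ATP synthase, which rose from 979.8 ± 22.4 to 1247 ± 108 (0.34 ± 0.07, adjusted p = 0.0376). Without Jmjd1c 3 both were 0.28 and the calls were lost (adjusted p = 0.123 and 0.124). They were lost too without control 1, control 2, control 3 or Jmjd1c 2, and that of Atp5d with GC and length correction (0.2, adjusted p = 0.127). No test of the difference between the sets was made.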

How the data were processed

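Total RNA taken up in Trizol went through a SMARTer amplification made for very small inputs and was sequenced in paired-end mode, per the labels' protocols. The deposited values are a signal per gene: the authors' read counts divided by a size factor. HTSeq 0.6.1p1, STAR, Trim Galore 0.2.8, DESeq 1.18.0 and the build mm10 stand in the submitters' processing notes, with strand setting and annotation not given in the sources used here. In each deposited column the signal was a whole multiple of 1 step for 100% of values within 0.01 of a read, which returned the reads; 4303712 to 6436519 reads per library make genes of few reads imprecise.

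Symbols matched 37607 of 39179 IDs. Positions, exons, lengths and GC content came from GENCODE M21 (GRCm38, the build mm10 names). Genes reaching 10 in 3 or more libraries were tested with limma-trend (limma 3.58.1, R 4.3.3) on log2(value + 1), Benjamini-Hochberg over all 12813 genes, threshold 0.05; fold changes on this scale understate those of low genes. The code was tested on simulated data. Alternatives included edgeR 4.0.16 and DESeq2 1.42.0 on recovered reads, pseudocounts of 0.5 and 10, other filters and scalings, GC and length correction, a replicate block and each library left out. Means have SDs, log2 fold changes SEs.

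The members, gene lists and tests were chosen with earlier results of these data known, and the exon overlap, partner genes and summed ratio were examined after seeing the members' values. Named members are those past the threshold, in each subunit the 5 most positive and 5 most negative with a mean of at least 50, the 3 highest and 3 lowest per kilobase, any member that failed the filter, a set of functional members, and from each list of related genes up to 4 past the threshold or, where none passed, the 2 with the smallest p. Mrps10, Mrps9, Mrpl45, Mrpl50, Mrps11, Mrpl46, Nrf1, Gabpa, Yy1, Slirp, Tfam, Sars2, Eme2, Wdfy1, Mrps17, Cox5a, Atp5d and Prss34 were named after their values were seen. Promoter windows came from RefSeq (GRCm38.p6), 250 bases before to 50 after the start.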

Additional observations from a re-analysis of the deposited data

Results flagged for a closer look

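A library far from the other 3 of the control group was found in 4 of 111 sets of control values checked, where chance gives about 1 in 20. Control 1 held 472 normalized read counts of Mrps9 against 444 to 447 in the other controls, and control 4 held 687 of Mrps17 against 653 to 658. The summed level of the macrophage and dendritic cell markers was 9993 in control 4 against 2509 to 3755, and that of the mature T and NK cell markers was 1960.1 in control 1 against 1737 to 1764.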

How the results depend on the processing

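The count of large subunit members called was 0 under every alternative run, an adjusted p threshold of 0.1 included. The count for the small subunit, 1 as reported, was 0 without the intensity trend, with the replicate block, with GC and length correction, with both, and without control 4 and Jmjd1c 3, a setting chosen after seeing the data. It was 2 with DESeq2, 3 at a threshold of 0.1 (Mrps12, Mrps26 and Mrps34) and 0 to 2 when a library was left out. The 231 genes called among all tested became 0 without the trend (2213 at an unadjusted p under 0.05), 590 with DESeq2, 49 with GC and length correction, 119 without control 4 and Jmjd1c 3, and 716 at 0.1 (542 higher, 174 lower). Leaving out a library gave 3 to 631: 72 without control 1, 3 without control 2, control 3 or Jmjd1c 2, 9 without Jmjd1c 3 and 631 without Jmjd1c 1. The cause was not tested.

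The labels give replicate numbers but do not say whether these pair the libraries. Deviations of same-numbered libraries correlated at -0.152, -0.0021 and 0.0174, and those of differently numbered ones at -0.132 to 0.148. Both kinds of pair spread about 0, so these correlations cannot decide whether the libraries are paired. With the replicate block 15 genes were called among all tested, and with the block and GC and length correction 45. Mrps26 then had an adjusted p of 0.12 and 0.141. The small subunit median was 0.0302 with the block and with replicates 1 to 3 alone, and with block and correction the medians were 0.00217 (large) and 0.0869 (small).

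The large subunit median was 0.0258 with GC and length correction and -0.0522 to -0.0121 when a library was left out. The small subunit median was 0.0822 with that correction, -0.0076 with quantile normalization and -0.00639 to 0.0537 when a library was left out. The log2 ratio of small to large sums was 0.0561, and 0.114 from means of log2 values. Members close to 0 changed sign with GC and length correction, the second value being with the block as well: Mrpl28 (-0.0644, -0.0579), Mrpl18 (0.0392, 0.0116), Mrpl42 (0.0353, 0.021), Mrps18c (0.108, 0.0638), Mrps21 (0.072, 0.0925), Mrps33 (0.0816, 0.0221), Mrpl41 (0.052, 0.0482), Mrps36 (0.18, 0.179). With the correction alone this held for Mrpl32 (0.0258), Mrpl24 (0.0282) and Mrps35 (0.000825). Without control 4 and Jmjd1c 3, Mrps30 was -0.0906 and Mrpl11 -0.0126. Mrpl44 was -0.000154 with TMM, -0.00919 with quantile normalization, -0.0032 with edgeR and -0.00595 with DESeq2. With a library left out the ranges that crossed 0 were Mrpl28 -0.0362 to 0.0476, Mrpl18 -0.0507 to 0.0121, Mrps30 -0.194 to 0.415, Mrps35 -0.0423 to 0.0375, Mrpl41 -0.068 to 0.000842, Mrpl44 -0.0377 to 0.0431 and Mrps36 -0.145 to 0.0788. Depth limits the scarcest members: the SE was 0.32 for Mrps30, against a median of 0.086 over the members.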

Other observations

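The members with the more positive differences were among those with fewer reads. All 9 members with a log2 fold change over 0.2 (Mrps26, Mrps34, Mrpl38, Mrps24, Mrps6, Mrps12, Mrpl37, Mrps10 and Mrps22) had a level below the members' median of 346 normalized read counts, where 2 of 38 members lay under -0.2, and 0 of the 38 at or above that median were over 0.2. Of the 9, 7 were highest in Jmjd1c 3 and 2 in Jmjd1c 2, and 8 had a lower value without Jmjd1c 3. Their median was 0.32, and 0.28 without that library. The 9 were picked by this difference, so high values in Jmjd1c libraries are built in.

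Tested members that share exonic bases with another gene on the same strand (Mrpl3, Mrpl51, Mrps18c, Mrps24, Mrps34 and Mrps6) had a median difference of 0.23 on the log2 scale, at a median level of 210.0 normalized read counts. The 25 members that overlap only a gene on the opposite strand had a median of -0.02, and the 45 with no exon overlap had -0.03. After GC and length correction these 3 medians were 0.18, 0.04 and 0.04. Mrps26 overlaps 4930473A02Rik on the opposite strand by 8 bases.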
